A study of Mus musculus with 12 samples.

Results

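The interferon-stimulated genes are genes whose RNA rises when a cell senses interferon. 45 of them, given as a list of gene symbols, were read in 4 monocyte-macrophage (Mo-Mac) fractions. All 45 listed symbols were found among the 37775 genes of the count table, all 45 passed the minimum of 50 counts summed over the 12 libraries, and all 45 were among the 22118 genes that could be tested. The fractions were sorted by FACS from the ear skin of WT BALB/c mice on day 5 of IgE-CAI, an IgE-mediated chronic allergic inflammation elicited with 300 μg of anti-TNP IgE and 10 μg of TNP-conjugated OVA. CD45+CD11b+ cells without Siglec-F or Ly6G were divided by Ly6C and PD-L2 into Ly6ChiPD-L2lo classical monocytes, Ly6ChiPD-L2hi early classical monocyte-derived macrophages (CMDMs), Ly6CloPD-L2hi late CMDMs and Ly6CloPD-L2lo resident-like macrophages, with 3 libraries each. All 4 fractions came from challenged skin of the same genotype, and no uninflamed skin or interferon-treated sample was analysed here. How many mice stand behind a library is not given in the sources used here, so the p-values measure the spread between these libraries.

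Type I interferons bind IFNAR1 and IFNAR2, and interferon-gamma binds IFNGR1 and IFNGR2. The kinases JAK1, JAK2 and TYK2 then activate transcription factors. In the type I pathway these form a complex with IRF9 that binds the interferon-stimulated response element (ISRE), while those activated by interferon-gamma bind the GAS element. The induced proteins sense viral nucleic acid, block virus replication or feed back on the pathway, and macrophages express many of them without infection.

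Sequences upstream of the members are shown because the ISRE and GAS elements of the pathway act from such sequences. RefSeq promoter windows on GRCm38.p6, from 250 bases before to 50 bases after the start of a gene, were available for 35 of the 45 members. A core of the ISRE, searched on both strands as GAAA, any 2 bases and GAAA again, was found in 21 of these 35 members (60.0%) and in 3.99% of the 27025 genes with a window. The GAS core, searched as TTCNNNGAA, occurred in 8 of 35 members (22.9%) and in 9.55% of all genes. A match is a description of the letters and not a measured binding site. Windows around the matches are printed from 5′ to 3′ on the strand of the gene, with the matched letters in capitals, which read as TTTC repeats where the match lies on the other strand and run together where matches overlap.
Isg15 (chr4:156200865-156200906, minus strand): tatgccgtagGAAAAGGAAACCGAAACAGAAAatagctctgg
Ifit1 (chr19:34640775-34640823, plus strand): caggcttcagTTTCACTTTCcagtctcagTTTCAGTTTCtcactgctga
Ifit3 (chr19:34583363-34583426, plus strand): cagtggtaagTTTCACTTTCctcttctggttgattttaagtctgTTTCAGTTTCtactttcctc
Ifit3b (chr19:34607759-34607822, plus strand): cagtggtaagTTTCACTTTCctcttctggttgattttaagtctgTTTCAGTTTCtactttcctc
Rsad2 (chr12:26456553-26456582, minus strand): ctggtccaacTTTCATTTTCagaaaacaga
Oas1a (chr5:120907526-120907555, minus strand): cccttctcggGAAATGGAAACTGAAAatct
Oas1g (chr5:120887614-120887641, minus strand): cccttctcggGAAATGGAAACTGAAAat
Bst2 (chr8:71537577-71537612, minus strand): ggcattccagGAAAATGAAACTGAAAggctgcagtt
Gbp2 (chr3:142620594-142620623, plus strand): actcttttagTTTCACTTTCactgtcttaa
Cxcl10 (chr5:92349083-92349112, minus strand): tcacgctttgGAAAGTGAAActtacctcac
Irf1 (chr11:53769914-53769942, plus strand), with the GAS core in capitals: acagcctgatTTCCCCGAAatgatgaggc
The Isg15 window held 3 overlapping ISRE cores that began 78 to 66 bases before the start of the gene. The windows of the paralogs Ifit3 and Ifit3b were the same at 64 of 64 bases, and those of Oas1a and Oas1g at all 28 bases they share. The windows of Irf7, Irf9, Ifit2, Oasl1 and Cxcl9 held no ISRE core, which says only that these letters are not in these bases.

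Total counts ranged from 12537178 to 19844113 per library, and 3 counts, the upper limit that a count of 0 allows, corresponded to 0.151 to 0.239 CPM, that is, counts scaled to a library total of 1000000. The deposited read counts per gene were scaled here with TMM, which centers each library on the typical gene, and CPM below are TMM-normalized. Each pair of fractions was compared, 6 comparisons in all, with the quasi-likelihood test of edgeR, and a gene was called where its p-value, adjusted over all tested genes by the Benjamini-Hochberg method, was below 0.05. SE is the standard error of a log2 fold change. In early CMDMs the summed level of 6 keratinocyte genes was 17100 to 27280 CPM, against 1871 to 4050 CPM in the other 9 libraries, and that of 10 pan-leukocyte genes was 1130 to 1806 CPM, against 2471 to 4781 CPM elsewhere. The 9 defining monocyte and macrophage markers, all of which could be tested, summed to 2242 to 3097 CPM in early CMDMs and to 5133 to 9958 CPM in the other libraries. In a bulk sample, fewer leukocytes and less RNA per leukocyte cannot be told apart. A scaling of each library to the 10 leukocyte genes is therefore given beside the directions. It moved the median log2 fold change of all genes from near 0 to 1.78 in early CMDMs and to 0.94 in late CMDMs against classical monocytes, to -0.82 in late against early CMDMs, and to 0.21, -1.56 and -0.74 in resident-like macrophages against classical monocytes, early CMDMs and late CMDMs. The share of all genes called under this scaling was not counted, so numbers of genes called under it are to be read beside these medians.

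The family as a whole was highest in classical monocytes with TMM, and in early CMDMs with the leukocyte scaling. With TMM the mean of 39 of the 45 members (86.7%) was highest in classical monocytes, whereas 26% of all tested genes had their highest mean in this fraction. Of the rest, Ifi204, Irf1, Oas2 and Eif2ak2 were highest in late CMDMs, Oasl1 and Cxcl9 were highest in resident-like macrophages, and none was highest in early CMDMs. The lowest mean lay in early CMDMs for 23 members and in resident-like macrophages for 18. With the leukocyte scaling 39 members had their highest mean in early CMDMs and 2 in classical monocytes, and 38 their lowest in resident-like macrophages. Summed over the members with TMM, the classical monocyte libraries had 2930, 2007 and 2382 CPM, the early CMDM libraries 1422, 915 and 1285 CPM, the late CMDM libraries 2013, 1459 and 1553 CPM, and the resident-like libraries 1420, 1442 and 1274 CPM. The classical monocyte and early CMDM sums did not overlap, and the late CMDM sums reached into the range of classical monocytes.

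**Figure D1:**
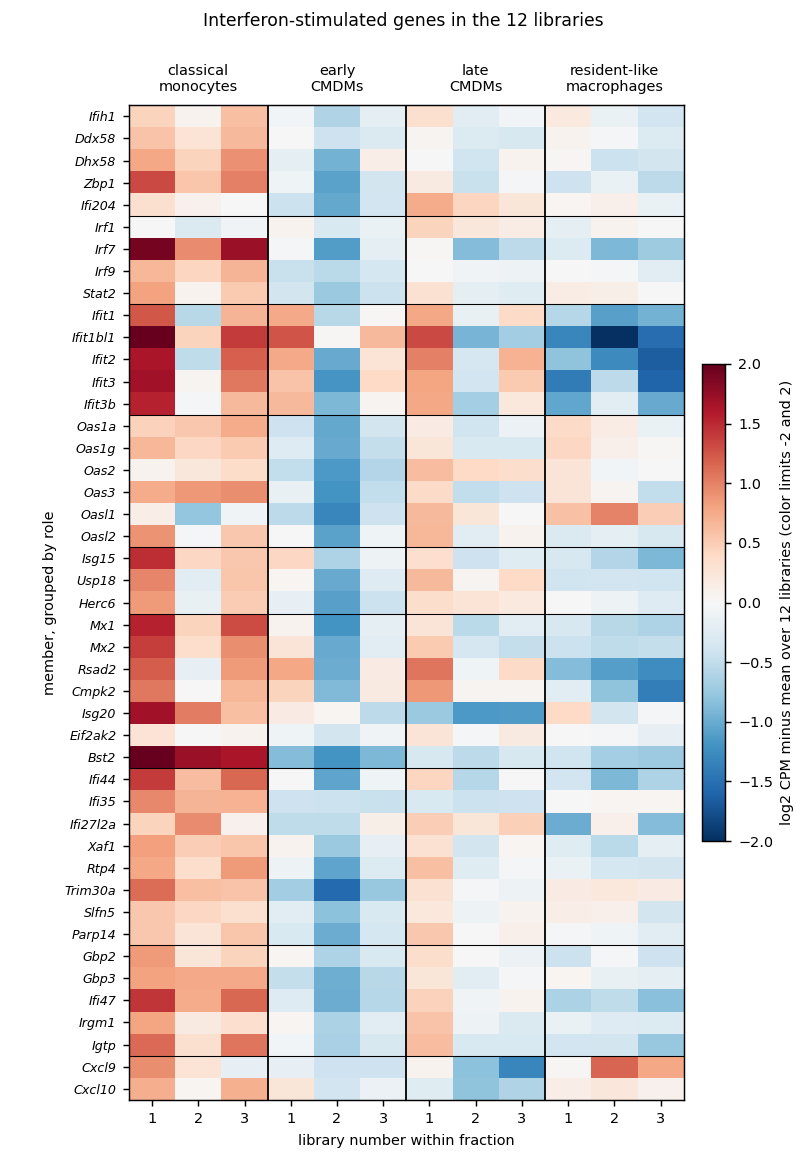
Log2 CPM of the 45 members (rows, grouped by role) in the 12 libraries (columns), each as the difference from the mean of that member over the 12 libraries. Red is above and blue below that mean on the TMM scale, with most red in the 3 classical monocyte libraries, and with library 1 redder than library 2 in classical monocytes, early CMDMs and late CMDMs.

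Between classical monocytes and early CMDMs, 34 of the 45 members were called lower in early CMDMs and 0 higher by edgeR, with a median log2 fold change of -0.94. At an unadjusted p below 0.05 the numbers were 35 and 0, and DESeq2 called 34 and 0. Of all tested genes 20.6% were called lower and 24.2% higher. Against the leukocyte genes the direction turned, with 30 members called higher and 1, Bst2, lower (median 0.83, beside 1.78 over all genes). The scaling genes themselves differed here. With TMM, Lcp1 and Laptm5 had log2 fold changes of -1.25 and -1.26, but Rac2 and Coro1a had -2.29 and -2.62. How far the turn depends on which of them are used was not tested. A scaling shifts all genes of a library alike, so by arithmetic the place of the members relative to the median gene hardly depends on it. There the members' median was -0.93 under TMM, with 44 of 45 below the median gene. That place cannot tell lower levels in the leukocytes from a smaller part of leukocyte RNA in the library.
Late CMDMs lay between these fractions. Against classical monocytes 23 members were called lower and 1, Irf1, higher (17.5% and 18.1% of all genes, median of the members -0.65), whereas under the leukocyte scaling 3 were called lower and 15 higher. Without classical monocyte library 1, or without late CMDM library 2, the number called lower was 15. The leukocyte scaling genes did not move alike in this comparison either. With TMM, Coro1a and Rac2 had log2 fold changes of -2.38 and -1.28, but Laptm5 and Lcp1 had -0.19 and -0.24. A scaling to only some of them was not run. Against early CMDMs 12 members were called higher and 1 lower (14.4% and 17.5% of all genes, median 0.37), and under the leukocyte scaling 0 were called higher and 15 lower. Without early CMDM library 2, or without late CMDM library 1, the number called higher was 7.
Resident-like macrophages differed from classical monocytes in the same direction under both scalings. There 32 members were called lower and 1, Oasl1, higher (12.9% and 10.8% of all genes, median -0.87), and under the leukocyte scaling 24 were called lower and 1 higher (median -0.67). Without classical monocyte library 1 the number called lower was 21. Markers of other cells moved with this comparison. The 6 Langerhans and conventional dendritic cell markers, all detected, summed to 1479 to 1727 CPM in resident-like macrophages. In the other 9 libraries they summed to 219 to 342 CPM. These 6 markers did not move alike, and against classical monocytes edgeR called 3 higher and 1, Flt3, lower. Cd207, Cd209a and Epcam had means of 819.3, 555.2 and 218.7 CPM, against 38.16, 140.8 and 34.7 CPM in classical monocytes. Flt3 had 26.99 against 68.89 CPM, while Zbtb46 (11.96 against 10.41 CPM) and Xcr1 (4.23 against 3.212 CPM) were close. The 6 fibroblast markers, also all detected, summed to 275.6 to 358 CPM against 3254 to 5588 CPM in classical monocytes. The part of either marker set in the result was not tested. Against early CMDMs 12 members were higher and 1 lower (21.4% and 25.1% of all genes), a share of higher calls near that of all genes, and under the leukocyte scaling 0 were higher and 43 lower. Against late CMDMs 4 were higher and 4 lower (12.7% and 15.4% of all genes), whereas DESeq2 called 4 and 11, and 12 were lower at an unadjusted p below 0.05, and under the leukocyte scaling 0 were higher and 40 lower. The comparisons that use the same fraction share its libraries. 6 members were called in 5 of the 6 comparisons, and 1 member, Eif2ak2, was called in 0 of 6 by edgeR, in 1 by DESeq2, and in 2 at an unadjusted p below 0.05.

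**Figure D2:**
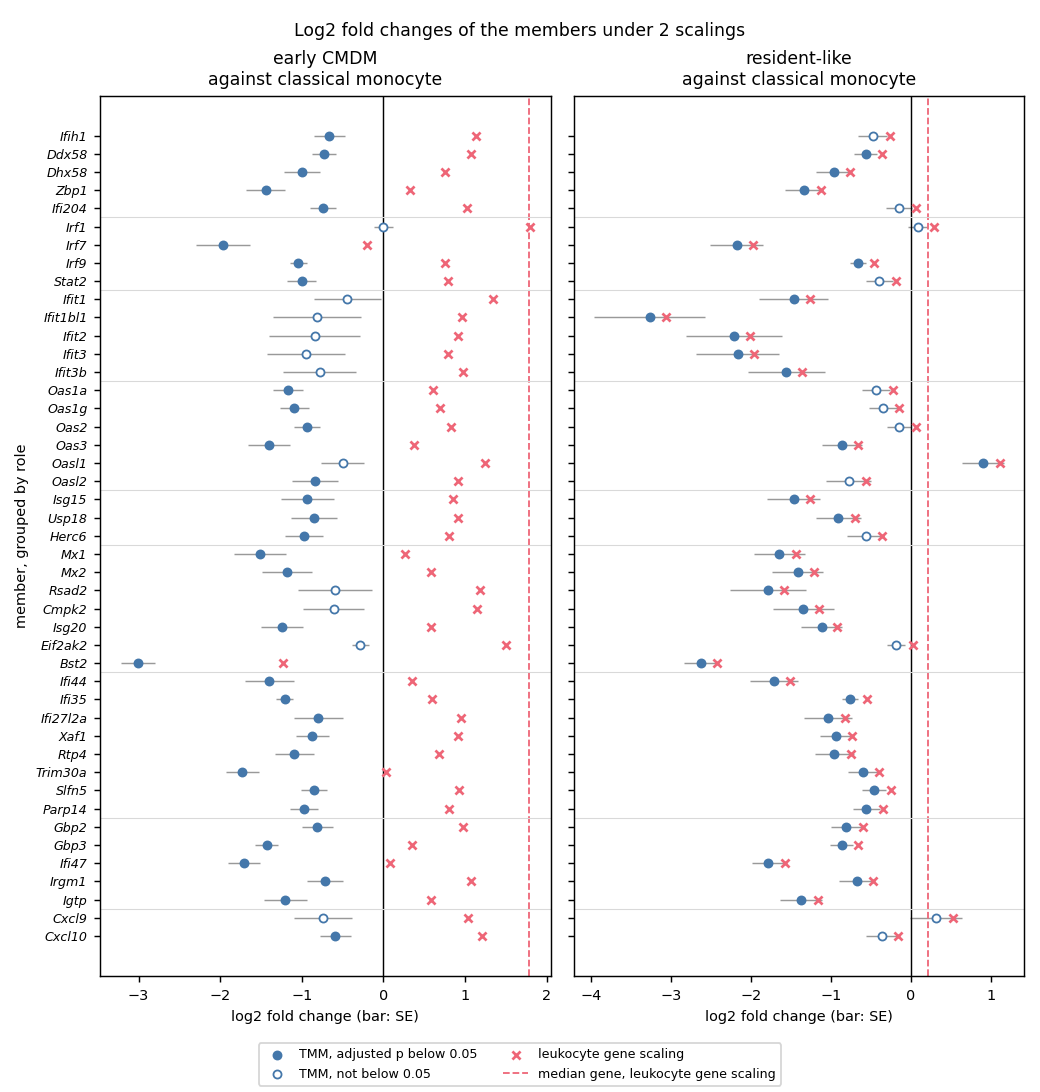
Log2 fold change of each member (rows) in early CMDMs and in resident-like macrophages against classical monocytes, with TMM (circles with standard error, filled where the adjusted p-value was under 0.05) and with the leukocyte scaling (crosses). The dashed line is the median of all genes under the leukocyte scaling: in early CMDMs nearly all members moved from below 0 to above 0 with the scaling and stayed left of that line, and in resident-like macrophages the Ifit genes lay far left under both.

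Few interferon genes were detected. Of 21 ligands listed, 10 were in the table and 2 could be tested. Ifng, which encodes interferon-gamma, had 8.25, 3.46 and 4.24 CPM in classical monocytes, and the highest of the other 9 libraries had 0.728 CPM. It was called lower in each of the 3 other fractions than in classical monocytes under both scalings. In the same classical monocyte libraries the 6 T and NK cell markers summed to 158, 128 and 123 CPM, against 18.7 to 48.8 CPM in the other 9 libraries, and their part in the Ifng level was not tested. Ifnk, the type I interferon kappa, had 1.91, 2.13 and 2.90 CPM in late CMDMs and at most 0.569 CPM elsewhere. Ifnb1, which encodes interferon-beta, had at most 21 counts in a library.
Receptors of both interferon types were more abundant in classical monocytes than in early CMDMs under TMM, where 5 of the 6 genes were called lower in early CMDMs and Ifnlr1 higher (20.6% and 24.2% of all genes), whereas with the leukocyte scaling 0 were called lower and 4 higher. Ifnar1 had 316 ± 26.1 CPM in classical monocytes, 93.9 ± 15.5 in early CMDMs, 122 ± 7.05 in late CMDMs, and it reached 187 ± 5.44 in resident-like macrophages (SD, n = 3 libraries in each). Ifnar2 followed the same order, with 238 ± 1.83, 91.1 ± 19.7, 154 ± 14.0 and 164 ± 12.6 CPM. Ifngr1 had 382 ± 35.1 CPM in classical monocytes and 107 ± 4.27 to 165 ± 12.9 CPM in the other fractions. Ifngr2 had 177 ± 6.92 CPM in classical monocytes and 179 ± 10.2 in resident-like macrophages, with 77.3 ± 12.2 in early and 114 ± 7.55 in late CMDMs. Il10rb, a receptor chain shared by interferon-lambda and IL-10, had 118 ± 23.2, 62.5 ± 14.7, 114 ± 8.80 and 104 ± 6.24 CPM in the same order of fractions. Ifnlr1, the specific chain for interferon-lambda, went the other way, with 5.19 ± 0.712 CPM in early CMDMs against 1.19 ± 0.451 in classical monocytes. The early CMDM libraries also had 17100 to 27280 CPM of the 6 keratinocyte genes, whose part in the Ifnlr1 level was not tested.
The kinases JAK1, JAK2 and TYK2 relay the signal from the receptors. Jak1 had 283 ± 12 CPM in classical monocyte and 240 ± 10.1 in early CMDM libraries. Jak2 (181 ± 21.8 against 103 ± 12.1 CPM) and Tyk2 (42.5 ± 2.71 against 23.3 ± 3.11 CPM) were called lower in early CMDMs than in classical monocytes, whereas with the leukocyte scaling both, and Jak1, were called higher.
Among 6 negative regulators, 3 were called lower in early CMDMs than in classical monocytes (20.6% of all genes), and all 6 were called higher in resident-like macrophages than in early CMDMs (21.4% of all genes), but with the leukocyte scaling 5 were called higher in the first comparison and 5 lower in the second. Socs3, which inhibits JAK kinases, was the most abundant, with 306 ± 42.9 CPM in classical monocytes, 292 ± 20.3 in early CMDMs, 352 ± 39.3 in late CMDMs, and 392 ± 10.5 in the resident-like macrophages. Ptpn6, the phosphatase SHP-1 and 1 of the 10 leukocyte scaling genes, had 128 ± 8.12, 38.2 ± 6.65, 59.4 ± 5.11 and 102 ± 7.66 CPM. Socs1 had 56.1 ± 6.75 to 77.6 ± 1.5 CPM and Ptpn2 44.4 ± 1.52 to 70.1 ± 7.06 CPM over the fractions. Of 9 genes that induce interferon or limit its induction, 6 were called lower and 1, Mavs, higher in early CMDMs than in classical monocytes (20.6% and 24.2% of all genes), and 8 higher with the leukocyte scaling. Irf5 had 224 ± 19.2 CPM in classical monocytes and 86.3 ± 20.2 in early CMDMs, and Tbk1, the kinase that activates IRF3, had 159 ± 16.1 and 83.3 ± 8.18 CPM. Tlr7, the endosomal sensor of single-stranded RNA, had 52.6 ± 5.18 CPM in classical monocytes, 22.1 ± 6.72 in early CMDMs and 65.9 ± 7.20 in late CMDMs. Trex1, the DNase that limits DNA sensing, had 63.0 ± 8.02 CPM in classical monocytes and 27.2 ± 4.53 in early CMDMs.

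The 4 transcription factors of the family did not move together. Irf7, the amplifier of type I interferon, had 224, 114 and 196 CPM in classical monocytes, 57.8, 27.4 and 52.1 in early CMDMs, 60.1, 32.6 and 41.5 in late CMDMs, and 49.1, 32.0 and 36.3 in resident-like macrophages. The classical monocyte libraries stood above all 9 others. Its log2 fold change in early CMDMs against classical monocytes was -1.96 (SE 0.33, adjusted p = 0.000400 from edgeR), and -0.20 with the leukocyte scaling (adjusted p = 0.489). Irf9, a DNA-binding subunit of the complex at the ISRE, had 75.2, 63.9 and 75.9 CPM in classical monocytes, 34.9, 32.6 and 37.3 in early CMDMs, 47.9, 45.1 and 44.5 in late CMDMs, and 47.7, 46.5 and 40.6 in resident-like macrophages. Early CMDMs were the lowest and classical monocytes the highest, with a log2 fold change of -1.04 (SE 0.10, adjusted p = 4.55e-07 from edgeR) that was 0.76 with the leukocyte scaling. Irf1, a factor induced strongly by interferon-gamma and also by other inflammatory signals, had 246, 201 and 233 CPM in classical monocytes, 257, 199 and 224 in early CMDMs, 333, 286 and 272 in late CMDMs, and 215, 257 and 245 in resident-like macrophages. With TMM the first 2 fractions overlapped, and late CMDMs stood above all other libraries, by 0.39 on the log2 scale against classical monocytes (SE 0.12, adjusted p = 0.0180 from edgeR). That call was lost without classical monocyte library 2 (adjusted p = 0.0809) or late CMDM library 1 (adjusted p = 0.0958). With the leukocyte scaling 0 of the 4 factors were called higher in late than in early CMDMs, and 3 were called lower. As a share of the summed CPM of the 45 members, which no scaling changes, Irf1 held 8.38% to 10.0% in the classical monocyte libraries and 15.1% to 21.8% in the other 9, and Irf7 held 5.68% to 8.23% in classical monocytes and 2.22% to 4.06% elsewhere. Stat2 had 46.8 to 78.5 CPM in classical monocytes and 26.9 to 34.6 in early CMDMs.

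All 5 sensors of viral nucleic acid were called lower in early CMDMs than in classical monocytes (20.6% of all genes), whereas with the leukocyte scaling 4 of the 5 were called higher. Zbp1, a sensor of Z-form nucleic acid that triggers cell death, had 63.1, 37.2 and 51.2 CPM in classical monocytes, 23.9, 12.1 and 19.8 in early CMDMs, 28.8, 18.7 and 24.7 in late CMDMs, and 19.0, 23.2 and 17.6 in resident-like macrophages. Classical monocytes did not overlap with the others, and the log2 fold change in early CMDMs was -1.44 (SE 0.24, adjusted p = 0.000249 from edgeR). Ifi204, a member of the HIN-200 family of DNA-binding proteins, had a different order. It had 94.4, 80.1 and 76.0 CPM in classical monocytes, 55.8, 36.8 and 57.5 in early CMDMs, 126, 102 and 88.7 in late CMDMs, and 77.2, 80.3 and 68.2 in resident-like macrophages. It was lower in early CMDMs than in classical monocytes (log2 fold change -0.74, SE 0.16, adjusted p = 0.00149 from edgeR) and higher in late than in early CMDMs (1.08, SE 0.16, adjusted p = 0.000104), and with the leukocyte scaling these values were 1.03 and 0.26. Of the 50-base stretches of Ifi204 transcripts, 30.2% also occur in other genes, mainly Ifi211, so its reads could be split between paralogs. The RNA helicases Ifih1, Ddx58 and Dhx58 had 16.9 to 45.5 CPM in classical monocytes and 6.45 to 28.7 CPM in early CMDMs.

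The Ifit family, proteins that bind viral RNA and block its translation, had its lowest sums in resident-like macrophages. Its 5 genes lie together on chromosome 19 from 34550694 to 34650009 of GRCm38. Summed over the family, classical monocyte libraries had 103, 27.9 and 69.7 CPM, early CMDM libraries 57.2, 19.1 and 40.4, late CMDM libraries 64.4, 26.4 and 48.0, and resident-like libraries 18.5, 17.2 and 13.1. The first 3 fractions overlapped widely, and the resident-like libraries lay below all 9 others. At each library number the classical monocyte sum was above both CMDM sums, but the labels do not say that the numbers pair. All 5 genes were called lower in resident-like macrophages than in classical monocytes under TMM (12.9% of all genes), and 4 of 5 with the leukocyte scaling. Against early CMDMs edgeR called 1 of 5 lower and against late CMDMs 0 (25.1% and 15.4% of all genes). DESeq2 called 1 and 4 there, and an unadjusted p below 0.05 was reached by 4 and 4. With the leukocyte scaling all 5 were called lower in both. In early and in late CMDMs against classical monocytes edgeR and DESeq2 called 0 of the 5 genes. Of all genes edgeR called 20.6% and 17.5% lower there. At an unadjusted p below 0.05 there were 0 and 1 lower, with median log2 fold changes of -0.81 and -0.66. With the leukocyte scaling the medians were 0.96 and 0.28, and 1 gene was called higher in early CMDMs. An edgeR fit that treats libraries of the same number as a block called 2 and 1 lower there. In resident-like macrophages that fit called 3 lower against early CMDMs and 4 against late CMDMs.
Ifit2, the most abundant of the family, had 48.4, 11 and 35.7 CPM in classical monocytes, 26.3, 7.78 and 18.9 in early CMDMs, 31.4, 12.3 and 25.1 in late CMDMs, and 8.95, 6.43 and 4.94 in resident-like macrophages. Its log2 fold change was -0.84 in early CMDMs (SE 0.56, adjusted p = 0.253 from edgeR) and -2.22 in resident-like macrophages (SE 0.60, adjusted p = 0.0214 from edgeR). The second call was lost without classical monocyte library 1 or 3 (adjusted p = 0.0921 and 0.0779) and without resident-like library 2 (adjusted p = 0.0712). Ifit3 had 17.9, 5.78 and 11.5 CPM in classical monocytes, 8.29, 2.47 and 7.34 in early CMDMs, 9.56, 4.25 and 8.02 in late CMDMs, and 2.10, 3.88 and 1.82 in resident-like macrophages, with a log2 fold change of -2.17 between resident-like macrophages and classical monocytes (SE 0.52, adjusted p = 0.00944 from edgeR). Ifit1bl1 fell furthest. It had 8.99, 2.53 and 4.91 CPM in classical monocytes, 4.45, 1.90 and 2.91 in early CMDMs, 4.62, 0.973 and 1.15 in late CMDMs, and 0.755, 0.243 and 0.647 in resident-like macrophages (log2 fold change against classical monocytes -3.27, SE 0.69, adjusted p = 0.00364 from edgeR). Ifit1 had 16.7, 4.84 and 11.4 CPM in classical monocytes, 12.1, 4.87 and 7.22 in early CMDMs, 12.1, 6.44 and 9.24 in late CMDMs, and 4.80, 3.34 and 3.71 in resident-like macrophages. Ifit3 shares 51.2% of its 50-base stretches with Ifit3b, so reads could be split between this pair, and Ifit3b had 1.89 to 11.3 CPM over the 12 libraries.

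The OAS family makes the second messenger that activates RNase L, and its order of fractions was not that of the Ifit family. Of its 6 genes, 5 were called lower in early CMDMs than in classical monocytes (20.6% of all genes), and 5 higher with the leukocyte scaling. In resident-like macrophages against classical monocytes 1 was called lower and 1 higher, near the shares of all genes (12.9% and 10.8%). With the leukocyte scaling these were 0 and 1. The summed OAS level was 178, 144 and 177 CPM in classical monocytes, 102, 58.4 and 97.6 in early CMDMs, 178, 124 and 126 in late CMDMs, and 159, 158 and 131 in resident-like macrophages. Early CMDMs were below the other 9 libraries, which overlapped. The ratio of the Ifit sum to the OAS sum within a library, which no scaling changes, was 0.579, 0.194 and 0.394 in classical monocytes, 0.562, 0.327 and 0.414 in early CMDMs, 0.361, 0.213 and 0.382 in late CMDMs, and 0.117, 0.109 and 0.10 in resident-like macrophages. All 3 resident-like ratios were below the other 9.
Oasl1, an OAS-like protein that lacks synthetase activity and restrains IRF7 translation, had 32.5, 17.4 and 28.4 CPM in classical monocytes, 20.8, 12 and 22.3 in early CMDMs, 46.9, 35.3 and 29.8 in late CMDMs, and 44.9, 59.0 and 41.9 in resident-like macrophages. Its levels rose from early CMDMs to late CMDMs (log2 fold change 1.02, SE 0.26, adjusted p = 0.00949 from edgeR), and were higher in resident-like macrophages than in early CMDMs (1.40, SE 0.26, adjusted p = 0.000651), but with the leukocyte scaling these values were 0.22 and -0.14. Against classical monocytes the rise in resident-like macrophages was 0.90 (SE 0.26, adjusted p = 0.0212 from edgeR) and was also called with the leukocyte scaling. This call was lost without classical monocyte library 2 or 3 (adjusted p = 0.0666 and 0.0502) and without resident-like library 2 (adjusted p = 0.0927). As a share of the members' sum, Oasl1 held 0.866% to 1.19% in classical monocytes and 3.16% to 4.09% in resident-like macrophages. Between early CMDMs and classical monocytes the log2 fold change was -0.50 (SE 0.26, adjusted p = 0.142 from edgeR). Oas3, which senses long double-stranded RNA, had 16.2, 17.5 and 18.4 CPM in classical monocytes, 8.72, 4.24 and 6.84 in early CMDMs, 12.7, 6.87 and 7.21 in late CMDMs, and 11.5, 10.1 and 6.89 in resident-like macrophages. Its classical monocyte libraries did not overlap with the rest (log2 fold change in early CMDMs -1.40, SE 0.26, adjusted p = 0.000494 from edgeR). Oas1a shares 57.6% of its 50-base stretches with Oas1g, and both had lower levels in early CMDMs (10.1 to 18.7 CPM) than in classical monocytes (26.9 to 40.6 CPM).

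ISG15 is a ubiquitin-like protein secreted by cells or attached to others, Usp18 removes it and dampens IFNAR signaling, and Herc6 is its ligase in the mouse. All 3 genes were called lower in early CMDMs than in classical monocytes (20.6% of all genes), and all 3 higher with the leukocyte scaling. Isg15 had 76.6, 36.9 and 39.9 CPM in classical monocytes, 36.7, 18.0 and 25.6 in early CMDMs, 34.8, 20.6 and 23.3 in late CMDMs, and 22.0, 18.4 and 14.8 in resident-like macrophages. Classical monocyte library 1 stood apart from the other 2 of its fraction, which lay just above early CMDM library 1. The log2 fold change in early CMDMs was -0.93 (SE 0.32, adjusted p = 0.0332 from edgeR), and it was not called without classical monocyte library 1 (-0.51, adjusted p = 0.156) or without early CMDM library 2 or 3 (adjusted p = 0.134 and 0.108). Herc6 had 22.0, 11.1 and 17.4 CPM in classical monocytes, 10.9, 5.75 and 9.05 in early CMDMs, 15.5, 14.8 and 14.0 in late CMDMs, and 12.3, 11.4 and 10.2 in resident-like macrophages. Of its 50-base stretches, 23.8% also occur in Gm45193. Usp18 had 5.18 to 20.5 CPM over the 12 libraries.

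Bst2 had the largest log2 fold change of the members in early and in late CMDMs against classical monocytes. It encodes tetherin, which holds budding virus at the cell surface and is also a surface marker of plasmacytoid dendritic cells in the mouse. The libraries had 397, 223 and 208 CPM in classical monocytes, 37.0, 29.3 and 36.1 in early CMDMs, 53.8, 46.9 and 54.1 in late CMDMs, and 50.9, 41.9 and 40.7 in resident-like macrophages. Its log2 fold change in early CMDMs against classical monocytes was -3.01 (SE 0.21, adjusted p = 5.55e-08 from edgeR), and it was the only member also called lower with the leukocyte scaling. As a share of the members' sum, Bst2 held 13.5%, 11.1% and 8.72% in the classical monocyte libraries and 2.60% to 3.58% in the other 9. Per kb of its longest transcript, Bst2 was the most abundant member in classical monocytes, at 348 CPM per kb, followed by Ifi27l2a at 189 and Irf1 at 106.
Markers of plasmacytoid dendritic cells, a cell type that makes type I interferon and expresses Irf7 and Bst2 at rest, moved with these genes. The 6 markers Siglech, Ccr9, Klk1, Cox6a2, Pacsin1 and Tcf4 summed to 1526, 844 and 1009 CPM in the classical monocyte libraries, 118 to 131 CPM in early CMDMs, 176 to 205 in late CMDMs and 138 to 144 in resident-like macrophages. All 6 were called lower in early CMDMs than in classical monocytes (20.6% of all genes), with a median log2 fold change of -4.44, and 5 of 6 with the leukocyte scaling (-2.64). Siglech, a defining one, averaged 293 CPM in classical monocytes against 13.6 CPM in early CMDMs. Within classical monocytes, library 1 was highest for the marker sum, for Bst2 and for Irf7, and 41 of the 45 members were above the fraction mean in that library. Between libraries 2 and 3, the marker sum and Irf7 were higher in library 3, but Bst2 in library 2. Library 1 of early and of late CMDMs had 44 and 45 members above the mean. The marker sums of libraries 1 to 3 were 131, 118 and 122 CPM in early CMDMs and 195, 205 and 176 CPM in late CMDMs. The part of plasmacytoid dendritic cells in the levels of Bst2, Irf7 and the other members was not tested.

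**Figure D3:**
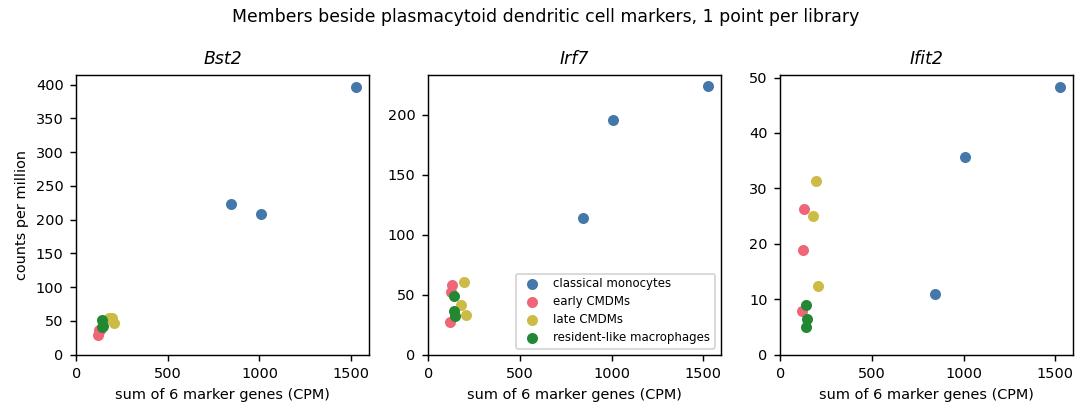
CPM of Bst2, Irf7 and Ifit2 (vertical axes) against the summed CPM of 6 plasmacytoid dendritic cell markers (horizontal axes), with 1 point per library colored by fraction. Classical monocyte libraries, at 844 to 1526 CPM of markers, were far from the other 9 for Bst2 and Irf7, while Ifit2 of classical monocyte library 2 lay within the range of early and late CMDMs.

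The other antiviral effectors divided into 3 patterns. Mx1 and Mx2, of a family of GTPases that block virus nucleocapsids, were lower in the 3 other fractions than in classical monocytes under TMM, and in early CMDMs both lay above classical monocytes with the leukocyte scaling, Mx1 by 0.26 on the log2 scale. Mx2 is annotated in GENCODE as a polymorphic pseudogene, and whether these mice make either protein was not tested. Mx1, which carries a deletion in many inbred strains, had 44.6, 20.9 and 38.2 CPM in classical monocytes, 16.3, 6.77 and 13.4 in early CMDMs, 18.5, 10.6 and 13.3 in late CMDMs, and 12.3, 10.6 and 10.1 in resident-like macrophages (log2 fold change in early CMDMs -1.51, SE 0.32, adjusted p = 0.00168 from edgeR). Rsad2, which encodes viperin, and its neighbor Cmpk2 on chromosome 12 resembled the Ifit genes. Rsad2 had 20.4 to 93.2 CPM in the classical monocyte and CMDM libraries and 17.1 to 22.3 in the resident-like libraries, and Cmpk2 had 3.18 to 7.12 CPM in the latter.
Isg20, an RNA exonuclease, was lowest in late CMDMs. It had 36.8, 23.4 and 17.3 CPM in classical monocytes, 12.9, 11.8 and 7.98 in early CMDMs, 6.85, 5.17 and 5.19 in late CMDMs, and 15.2, 8.92 and 11.3 in resident-like macrophages. All 3 late CMDM libraries were below the 9 others, with a log2 fold change against classical monocytes of -2.17 (SE 0.28, adjusted p = 3.14e-05 from edgeR), and Isg20 was among the 3 members called lower there with the leukocyte scaling. Eif2ak2, the kinase PKR that stops translation on double-stranded RNA, had 27.2 to 42.0 CPM over all 12 libraries.

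**Figure D4:**
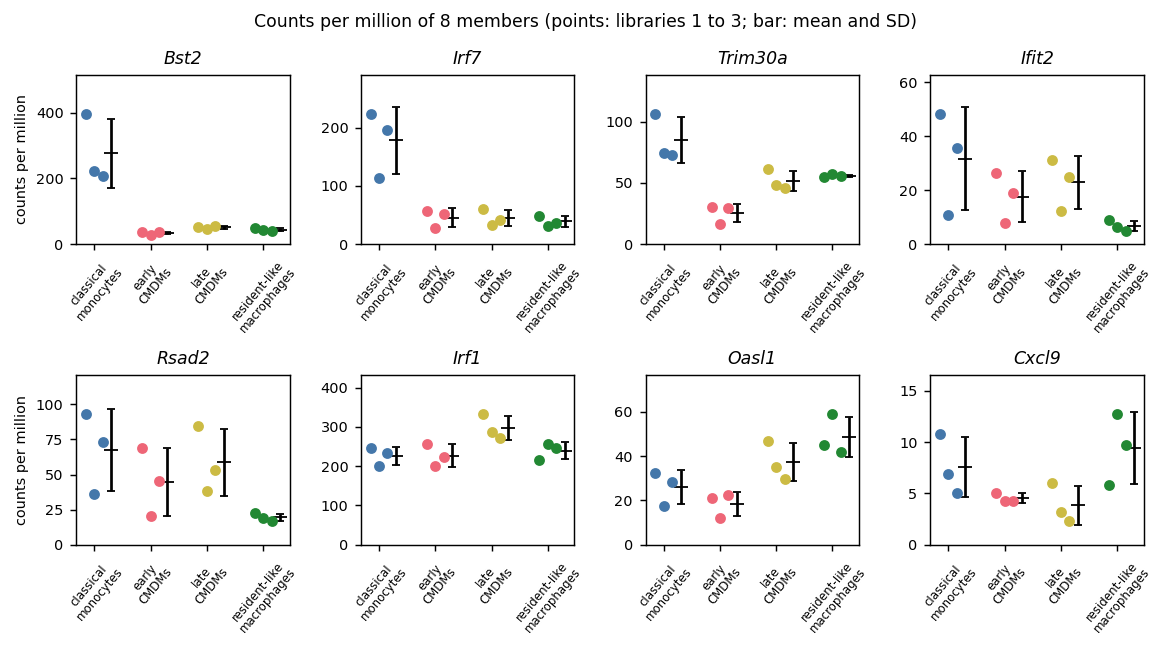
CPM of 8 members in the 3 libraries of each fraction (points), with the mean and SD beside them, on axes that start at 0. Bst2 and Irf7 were high in classical monocytes alone, Ifit2 and Rsad2 were low in all resident-like libraries and spread widely elsewhere, Trim30a was lowest in early CMDMs, and Oasl1 had its highest mean in resident-like macrophages.

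All 8 of the other type I interferon-induced genes were called lower in early CMDMs than in classical monocytes (20.6% of all genes), whereas 6 of 8 were called higher with the leukocyte scaling. Trim30a, a TRIM protein that restrains inflammatory signaling, had 106, 74.7 and 73.2 CPM in classical monocytes, 30.4, 16.8 and 29.2 in early CMDMs, 61.1, 48.6 and 45.8 in late CMDMs, and 55.2, 57.0 and 55.5 in resident-like macrophages. Early CMDMs did not overlap with any other fraction. Its log2 fold change was -1.73 in early CMDMs against classical monocytes (SE 0.20, adjusted p = 5.10e-06 from edgeR) and 1.02 in late against early CMDMs (SE 0.20, adjusted p = 0.00110), and with the leukocyte scaling these were 0.03 and 0.21. Its share of the members' sum was 1.84% to 2.28% in early CMDMs and 2.95% to 4.36% in the other 9 libraries. Parp14, an ADP-ribosyltransferase, had 198, 163 and 199 CPM in classical monocytes, 110.4, 68.7 and 107 in early CMDMs, 198, 135 and 146 in late CMDMs, and 135, 128 and 116 in resident-like macrophages. The late CMDM and classical monocyte libraries overlapped, and early CMDMs lay below both (log2 fold change -0.97, SE 0.17, adjusted p = 0.000265 against classical monocytes, and 0.74, SE 0.17, adjusted p = 0.00346 for late against early CMDMs, from edgeR), but with the leukocyte scaling early CMDMs were 0.80 above classical monocytes. Ifi44 had 71.1, 41.4 and 59.8 CPM in classical monocytes, 26.9, 13.0 and 25.2 in early CMDMs, 36.3, 18.2 and 26.6 in late CMDMs, and 20.6, 14.4 and 17.5 in resident-like macrophages. The remaining 5 genes, Ifi35, Ifi27l2a, Xaf1, Rtp4 and Slfn5, had 18.0 to 116 CPM in classical monocytes and 7.65 to 65.5 CPM in early CMDMs.

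The GTPases that respond more to interferon-gamma act on the vacuoles of intracellular pathogens. All 5 were called lower in early CMDMs and in resident-like macrophages than in classical monocytes (20.6% and 12.9% of all genes). With the leukocyte scaling 3 were called higher in early CMDMs and 4 lower in resident-like macrophages. Gbp2 had 78.0, 51.5 and 59.1 CPM in classical monocytes, 44.5, 28.1 and 35.2 in early CMDMs, 55.2, 43.1 and 39.9 in late CMDMs, and 32.1, 42.6 and 32.7 in resident-like macrophages (log2 fold change in early CMDMs -0.81, SE 0.19, adjusted p = 0.00256 from edgeR). Gbp3 had 37.5, 36.4 and 36.3 CPM in classical monocytes, 15.4, 10.9 and 14.6 in early CMDMs, 25.2, 18.5 and 20.8 in late CMDMs, and 21.9, 19.4 and 18.7 in resident-like macrophages. Ifi47 differed most, with 78.8, 49.0 and 64.9 CPM in classical monocytes, 24.5, 14.7 and 19.7 in early CMDMs, 40.1, 27.7 and 30.6 in late CMDMs, and 18.9, 20.5 and 16.4 in resident-like macrophages (log2 fold change in early CMDMs -1.71, SE 0.20, adjusted p = 5.71e-06 from edgeR). Irgm1 and Igtp had 14.7 to 51.1 CPM in classical monocytes and 6.95 to 43.8 CPM elsewhere.
The chemokines CXCL9 and CXCL10 attract T cells through CXCR3 and are classical interferon-gamma targets. Both were called higher in resident-like macrophages than in late CMDMs (12.7% of all genes), and neither was called there with the leukocyte scaling. Cxcl9 had 10.8, 6.87 and 5.07 CPM in classical monocytes, 5.07, 4.24 and 4.24 in early CMDMs, 5.97, 3.22 and 2.29 in late CMDMs, and 5.77, 12.7 and 9.71 in resident-like macrophages. Resident-like and classical monocyte libraries overlapped. The log2 fold change of resident-like macrophages against late CMDMs was 1.31 (SE 0.36, adjusted p = 0.0149 from edgeR) and was not called without late CMDM library 2 or 3 or resident-like library 2 (adjusted p = 0.0588, 0.0643 and 0.0624). Cxcl10 had 48.6, 30.3 and 48.2 CPM in classical monocytes, 34.8, 22.6 and 27.2 in early CMDMs, 24.9, 16.8 and 19.4 in late CMDMs, and 32.5, 34.6 and 31.4 in resident-like macrophages.

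Libraries of the same fraction differed in interferon-stimulated genes more than in other genes. The median SD of log2 CPM within fractions was 0.35 over the members, 0.23 over all tested genes and 0.18 over the tested genes at least as abundant as the lowest member. In classical monocytes 41 of 45 members were above the fraction mean in library 1 and 2 in library 2, with median deviations of 0.34 and -0.30. In early CMDMs the numbers were 44 and 2 (0.32 and -0.44), and in late CMDMs 45 and 1 (0.31 and -0.24). Library 1 was thus high and library 2 low in each of these 3 fractions, while the median deviation of all genes lay between -0.01 and 0.01 in every library. In the 3 resident-like libraries 33, 26 and 6 members were above the mean, with median deviations of 0.12, 0.02 and -0.12. The Ifit family spread most, with median deviations of 0.81, -0.90 and 0.12 in classical monocytes, 0.67, -0.81 and 0.11 in early CMDMs, and 0.55, -0.76 and 0.10 in late CMDMs, and with 0.29, -0.03 and -0.24 in resident-like macrophages. The medians of the OAS genes were 0.02, -0.08 and 0.12 in classical monocytes, 0.28, -0.49 and 0.19 in early CMDMs, and 0.36, -0.22 and -0.14 in late CMDMs. The labels do not say whether libraries with the same number came from the same mice or the same day, and a link between library number and level was not tested.

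**Figure D5:**
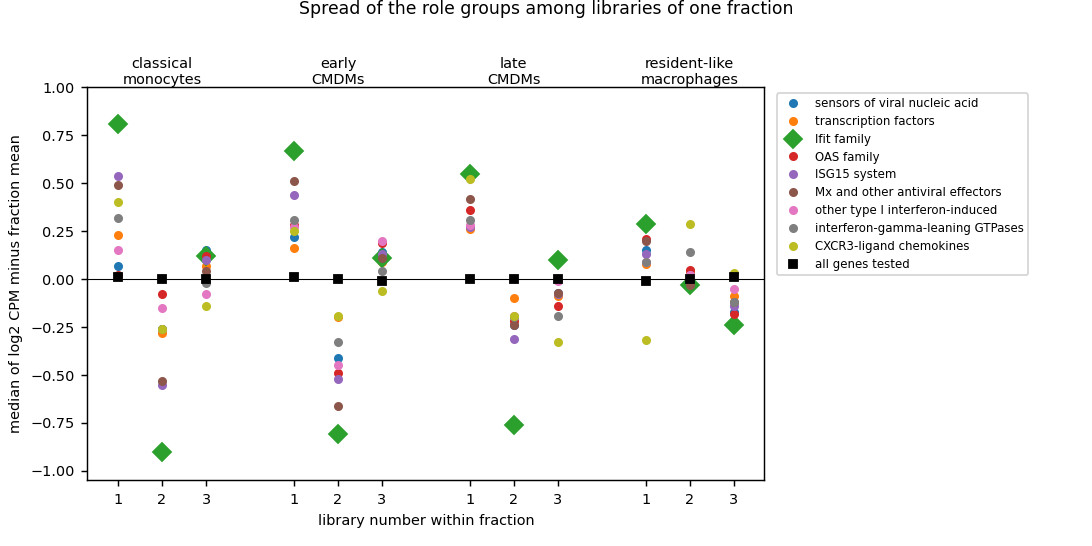
Median deviation of log2 CPM from the fraction mean (vertical axis) for the genes of each role (colored circles, Ifit family as large diamonds) and for all tested genes (black squares), in libraries 1 to 3 of each fraction (horizontal axis). Every role was above 0 in library 1 and below 0 in library 2 of classical monocytes, early CMDMs and late CMDMs, and the Ifit diamonds reached 0.81 and -0.90.

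Members with and without an ISRE core in the promoter window had similar values. The median log2 fold change in early CMDMs against classical monocytes was -0.85 for the 21 members with a core and -0.92 for the 14 without. Of them 15 and 9 were called lower with TMM (20.6% of all genes). In resident-like macrophages against classical monocytes the medians were -0.81 and -0.86, and again 15 and 9 were called lower (12.9% of all genes).
A list of 50 further interferon-induced genes was read in the same way. 49 could be tested, and in early CMDMs against classical monocytes 40 were called lower and 1, Oas1c, higher (20.6% and 24.2% of all genes, median of the list -0.83), whereas with the leukocyte scaling 2 were called lower and 33 higher. In late against early CMDMs 21 were called higher and 1 lower (14.4% and 17.5% of all genes), and 3 and 13 with the leukocyte scaling. In resident-like macrophages against classical monocytes 1 was called higher and 26 lower (10.8% and 12.9% of all genes), and 3 and 21 with the leukocyte scaling. Among the most abundant, Ifi207, a HIN-200 gene like Ifi204, had 289 ± 16.3 CPM in classical monocytes, 209 ± 40.3 in early CMDMs, 533 ± 46.3 in late CMDMs, against 472 ± 23.9 in resident-like macrophages. Samhd1, which depletes dNTPs, had 407 ± 10.0, 168 ± 39.0, 273 ± 38.2 and 249 ± 10.5 CPM in the same order. Slfn2 had 264 ± 45.8, 140 ± 25.9, 249 ± 18.2 and 308 ± 21.2 CPM, and Trim25, a ubiquitin ligase of the RIG-I pathway, had 253 ± 15.5, 149 ± 30.5, 251 ± 26.1 and 195 ± 28.6 CPM.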

How the data were processed

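RNA of the 4 sorted Mo-Mac fractions was captured with oligo(dT) beads and sequenced in bulk. The deposited counts were made by the authors with cutadapt 4.1 for trimming and Bowtie2 2.4.5 for mapping to 1 strand of the GRCm38 reference RNA, and transcript counts were summed by gene symbol, so that reads of near-identical genes could be split between them. Per the submitters' labels each library belongs to 1 fraction. The number of columns not used was 0.

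All 12 libraries were fitted together in edgeR 4.0.16 (R 4.3.3), with TMM, filterByExpr and robust quasi-likelihood. log2 CPM used a prior count of 2. The fit was tested on simulated data. Total counts were 12537178 to 19844113, and intervals from counts cover counting error only. Positions come from GENCODE M21, promoters from RefSeq, and shared 50-base stretches from the transcripts. The alternatives were DESeq2 1.42.0, RLE size factors, DEGES, total counts only, a scaling to 10 leukocyte genes, other filters, genes over 1% of counts left out, fits of only the 6 libraries compared, a replicate block and each library left out.

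The members, the lists, the leukocyte genes and the alternatives were chosen with earlier results of these data known. Named members were, for each role, the most abundant and the 2 with the widest range of fraction means, besides Ifit1, Ifit2, Ifit3 and Mx1. Other members are named as examples chosen after their values were seen. 1 gene of the pathway lists is not reported here.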

Additional observations from a re-analysis of the deposited data

How the results depend on the processing

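RLE size factors and leaving out genes over 1% of counts moved no count of called members by over 1.5 times. Scaled to leukocyte genes, the members called higher and lower were 30 and 1 in early CMDMs and 15 and 3 in late CMDMs against classical monocytes, 0 and 15 in late against early CMDMs, and in resident-like macrophages 0 and 43 against early CMDMs and 0 and 40 against late CMDMs, where the median of all genes moved with them. Over all 45 members, those with a log2 fold change below 0 went from 44 with TMM to 2 with that scaling in early CMDMs against classical monocytes. They went from 6 to 41 in late against early CMDMs, and from 18 to 45 in resident-like macrophages against early CMDMs. Of the single-gene log2 fold changes given above with an SE, those that turned were, in early CMDMs against classical monocytes, Zbp1 (0.33), Ifi204 (1.03), Irf9 (0.76), Ifit2 (0.92), Oas3 (0.38), Oasl1 (1.25), Isg15 (0.85), Mx1 (0.26), Trim30a (0.03), Parp14 (0.80), Gbp2 (0.98) and Ifi47 (0.08), and further Parp14 in late against early CMDMs (-0.08) and Oasl1 in resident-like macrophages against early CMDMs (-0.14). For the other alternatives the cause was not tested. Members called lower in resident-like macrophages against early CMDMs were 2 with DESeq2, 3 with DEGES, 3 with total counts only, 0 with no filter and 5 with the 6 libraries alone, and against late CMDMs 11, 10, 12 with the first 3, 11 with the 6 libraries alone, and 7 with at least 10 counts in every library. With no filter 20 were lower and 0 higher in resident-like macrophages against classical monocytes, 2 were higher against late CMDMs, and 0 were lower in late against early CMDMs. With total counts only 0 were higher in resident-like macrophages against classical monocytes.

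Without each library in turn, the members called lower and higher ranged from 27 to 36 and from 0 to 0 in early CMDMs against classical monocytes, from 15 to 27 and from 0 to 2 in late CMDMs against classical monocytes, and from 0 to 2 and from 7 to 14 in late against early CMDMs. In resident-like macrophages they ranged from 21 to 35 and from 0 to 1 against classical monocytes, from 0 to 5 and from 9 to 14 against early CMDMs, and from 1 to 9 and from 1 to 4 against late CMDMs. Where a fraction is left with 2 libraries, the fit pools its spread with the others.

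The replicate numbers were not taken to pair the libraries, since the labels do not say that they do. The values do not settle it. Of 18 pairs of libraries with the same number, the deviations of only 4 correlated by over 0.1 (r from -0.10 to 0.25). However, 14 correlated best with their own number, each out of 3 candidate libraries. With a replicate block, 19 members were called higher and 2 lower in late against early CMDMs, 6 lower in resident-like macrophages against early CMDMs and 12 lower against late CMDMs, and of the 5 Ifit genes 2, Ifit2 (adjusted p = 0.0300, edgeR) and Ifit1bl1 (0.0148), were called lower in early CMDMs and 1 in late CMDMs against classical monocytes, and 3 and 4 in resident-like macrophages against early and late CMDMs.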
